A study of Rattus norvegicus with 2 samples.

Results

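The transcripts examined were those of 10 intermediate filament genes of the rat retina, taken as the rows of the deposited gene table whose symbol is Gfap, Vim, Nes, Synm or Des (the glial group, 5 genes) or Nefl, Nefm, Nefh, Ina or Prph (the neuronal group, 5 genes). Each symbol matched 1 row, so the members were 10 of the 32662 genes listed. Intermediate filaments are cytoskeletal polymers of elongated coiled-coil proteins, and which subunits a cell makes depends on its type and state. In the retina, vimentin and glial fibrillary acidic protein (GFAP) form the filaments of Müller glia and astrocytes, and a build-up of GFAP in Müller glia is a widely used sign of gliosis, the reaction of glia to injury. Neurofilaments, built from light, medium and heavy chains with alpha-internexin or peripherin, fill the axons of retinal ganglion cells and the processes of horizontal cells.

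RNA was sequenced from the retina of Long-Evans rats aged 2 months, with 1 library per condition. CTRL came from a retina that went through a sham procedure, and IR12 from a retina exposed to ischemia and then reperfusion, taken 12 hours after blood flow returned. Ribosomal RNA was removed from both libraries, and reads were sequenced from a single end. The libraries have no replicates, so every difference below compares 2 libraries, has no replicate check and carries no p-value.

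Levels are given as FPKM, reads counted on a gene relative to its transcript length and to the mapped reads of the library, which allows genes of different length to be compared within a library. Changes are log2 ratios of (FPKM + 1), IR12 over CTRL, and the added 1 understates the change of genes with low values. Over the 12243 genes that reached 1 FPKM in both libraries, the log2 ratio had a median of 0.03. When the FPKM of both libraries were brought to the same sum (the TPM scale), a common factor raised all values of IR12 by 0.65 (log2, pseudocount not yet added), and this median became 0.62. Small decreases as deposited can therefore turn into increases on the TPM scale, which is stated for the members and the list medians. Small non-coding RNAs made up 68.0% of the FPKM sum in CTRL and 46.4% in IR12, and with these RNAs left out of the sums the factor was -0.10 (log2) in place of 0.65. Counts of genes at least 2-fold higher or lower are on the scale of (FPKM + 1), on which a gene under 1 FPKM in both libraries cannot reach 2-fold. The precision behind each level was read from the steps between low values. In CTRL, 1 read over 1000 bases of effective length was worth 0.0650 FPKM, and in IR12 0.0380 FPKM, so an FPKM of 1 stood for about 15.4 reads per 1000 bases in CTRL and 26.3 in IR12.

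Gfap showed the clearest gain among the members that were measured well in both libraries. Gfap (ENSRNOG00000002919, chr10:90990762-90999435 on rn6) measured 2.95 FPKM in CTRL and 21.9 FPKM in IR12, a 7.43-fold difference and a log2 ratio of 2.54. These levels stand for about 45.4 and 576 reads per 1000 bases. The sham-operated retina thus held a low but measurable amount of Gfap mRNA: by level it stood at percentile 19.6 of the 13599 genes that reached 1 FPKM in either library, and at percentile 63.6 in IR12.

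Nestin, a filament protein of neural progenitors that reactive glia can also make, was close to the floor of the measurement in CTRL. Nes (ENSRNOG00000018681, chr2:187344056-187352969) measured 0.152 FPKM in CTRL and 5.98 FPKM in IR12, which is a log2 ratio of 2.60. The value in CTRL stands for about 2.33 reads per 1000 bases, and for at most 20.3 reads in all if its transcript lies within the listed locus, against 157 reads per 1000 bases in IR12. The ratio of the FPKM themselves, 39.4, rests on those few reads in CTRL.

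Vimentin is the main filament protein of Müller glia and is also made by endothelial cells, pericytes, leukocytes and lens fibres. Vim (ENSRNOG00000018087, chr17:80882666-80891212) measured 121 FPKM in CTRL and 221 FPKM in IR12, a 1.83-fold difference and a log2 ratio of 0.86. Its change was smaller as a ratio than that of Gfap or Nes but by far the largest as an amount, since it started from a high level (percentile 94.3 of genes in CTRL).

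Des and Synm completed the glial group and went different ways. Desmin is best known from muscle, and in the retina it marks contractile cells of the vessel wall, so its place in the glial group comes from the way the members were chosen. Des (ENSRNOG00000019810, chr9:82556573-82564294) had an FPKM of 0.296 in CTRL, about 4.55 reads per 1000 bases, and 1.81 in IR12, about 47.6, with a log2 ratio of 1.12. Synemin joins filaments of vimentin, desmin or GFAP and cannot form filaments alone. Synm (ENSRNOG00000014030, chr1:128692112-128722048) measured 9.75 FPKM in CTRL and 8.27 FPKM in IR12, which is a log2 ratio of -0.21 that became 0.38 on the TPM scale. Synm was thus the 1 glial member that was not higher in IR12 as deposited. In CTRL it was the most abundant glial member after Vim, and in IR12 Gfap had passed it.

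**Figure D1:**
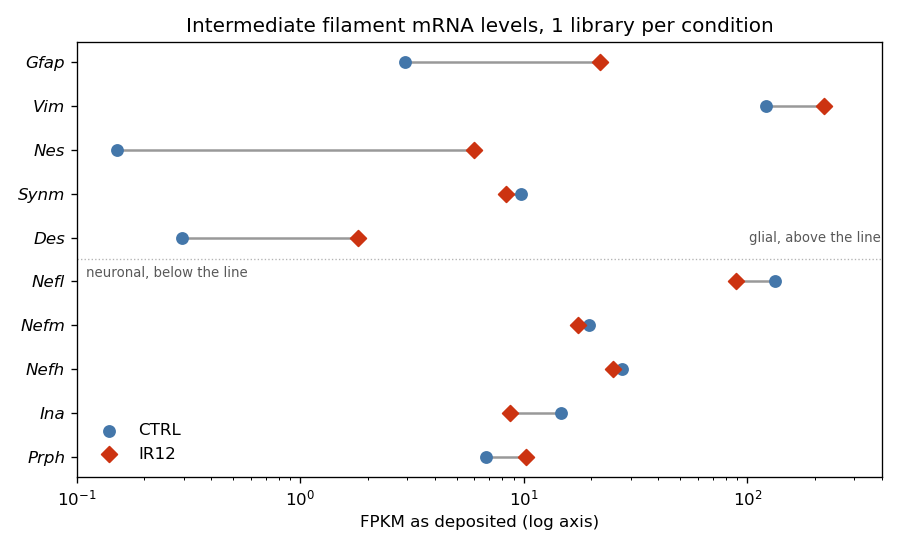
FPKM of each member in CTRL (blue circles) and IR12 (red diamonds) on a log axis, with 1 library per condition and the glial genes above the dotted line. Nes, Gfap and Des span the longest distances, from 0.152 to 5.98, 2.95 to 21.9 and 0.296 to 1.81, while the neurofilament genes lie close together in the 2 libraries.

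Among neuronal members, Nefl was the most abundant and had the largest drop in FPKM as deposited. The light chain is the core subunit on which neurofilaments assemble. Nefl (ENSRNOG00000013658, chr15:44799334-44804574) measured 132 FPKM in CTRL and 88.8 FPKM in IR12, which is a log2 ratio of -0.57 that became 0.07 on the TPM scale. About 2036 and 2335 reads per 1000 bases stand behind these values. In CTRL it was the most abundant of the 10 genes per unit length, ahead of Vim by 1.09 times, and in IR12 Vim was ahead of it by 2.49 times.

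The medium and heavy chains, whose long tails stand out from the filament and are phosphorylated in axons, differed little between the libraries. Nefm (ENSRNOG00000013916, chr15:44855310-44860604) measured 19.5 FPKM in CTRL and 17.5 FPKM in IR12, which is a log2 ratio of -0.15 as deposited and 0.47 on the TPM scale. Nefh (ENSRNOG00000008716, chr14:85181572-85191557) measured 27.4 FPKM in CTRL and 25.2 FPKM in IR12, which is a log2 ratio of -0.12 as deposited and 0.51 on the TPM scale. Both were close to the median gene on either scale.

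Alpha-internexin can assemble by itself or together with the neurofilament chains. Ina (ENSRNOG00000020248, chr1:266659519-266794431) measured 14.6 FPKM in CTRL and 8.64 FPKM in IR12, which is a log2 ratio of -0.70 that stayed below 0 on the TPM scale (-0.10). Its listed locus is shared with 3 other listed genes, among them Nt5c2, so its value may hold reads of its neighbours or lack reads given to them; no other member shared its locus with a listed gene. Ina was the neuronal member with the lowest log2 ratio, and the 1 member that was lower in IR12 under every scaling tried.

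Peripherin went the other way. Prph, which encodes the filament protein of peripheral neurons and some central neurons and should not be mistaken for Prph2, the photoreceptor disc protein also called peripherin, lies at chr7:140742418-140746197 (ENSRNOG00000052880). It measured 6.78 FPKM in CTRL and 10.2 FPKM in IR12, for a log2 ratio of 0.52, and about 104 and 267 reads per 1000 bases stand behind these values. It was the 1 neuronal member that was higher in IR12 as deposited, and it moved with Vim rather than with the neurofilament chains, which were higher in IR12 only on the TPM scale.

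Against the rest of the transcriptome, the glial and neuronal groups sat in different places. Of the 5 glial members, 3 were higher in IR12 by at least 2-fold (Gfap, Nes and Des) and 0 were at least 2-fold lower, beside 6.56% of the 13599 genes that reached 1 FPKM in either library. On the TPM scale 4 were at least 2-fold higher, and 22.4% of all genes were higher by this measure and 3.48% lower. Nes and Des had FPKM under 1 in CTRL and passed the filter only through IR12, so their passing is itself tied to the difference. Of the 5 neuronal members, 0 were at least 2-fold lower and 0 at least 2-fold higher as deposited, with 1 (Prph) at least 2-fold higher on the TPM scale, beside 6.12% of all genes that were at least 2-fold lower. The median log2 ratio was 1.12 over the glial members and -0.15 over the neuronal members as deposited, and 1.57 and 0.47 on the TPM scale. The neuronal median thus changed sign with the scaling. On both scales it lay below the median of genes that reached 1 FPKM in both libraries, which was 0.03 and 0.62. The glial median is the value of Des itself, 1 of the 2 genes under 1 FPKM in CTRL. The gap between the medians was 1.26 as deposited and 1.09 on the TPM scale, but 2.42 with a pseudocount of 0.1 in place of 1.

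**Figure D2:**
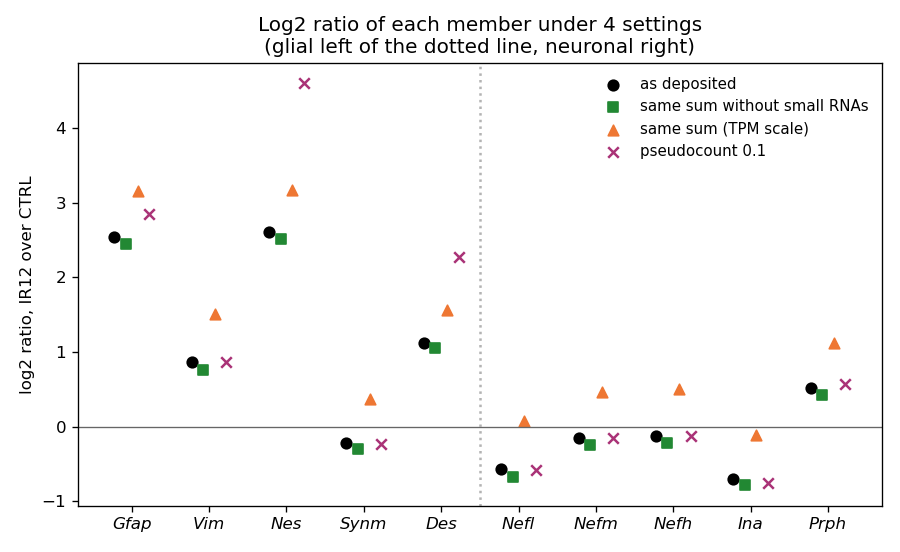
Log2 ratio (IR12 over CTRL) of each member under 4 settings, with glial genes left of the dotted line. Gfap, Vim, Nes, Des and Prph are above 0 under all 4, Ina is below 0 under all 4, and Synm, Nefl, Nefm and Nefh are below 0 except on the TPM scale (orange triangles), where they are 0.38, 0.07, 0.47 and 0.51.

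Placed among the same 13599 genes by log2 ratio, Nes stood at percentile 98.9, Gfap at 98.8, Des at 94.4 and Vim at 91.6, while Synm stood at 31.9. The neuronal genes spread from percentile 10.6 for Ina and 14.2 for Nefl through 36.5 for Nefm and 38.8 for Nefh to 83.1 for Prph. Thus 4 glial genes and Prph lay in the upper part of the range, Ina and Nefl in the lower part, and Nefm, Nefh and Synm nearer the middle.

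**Figure D3:**
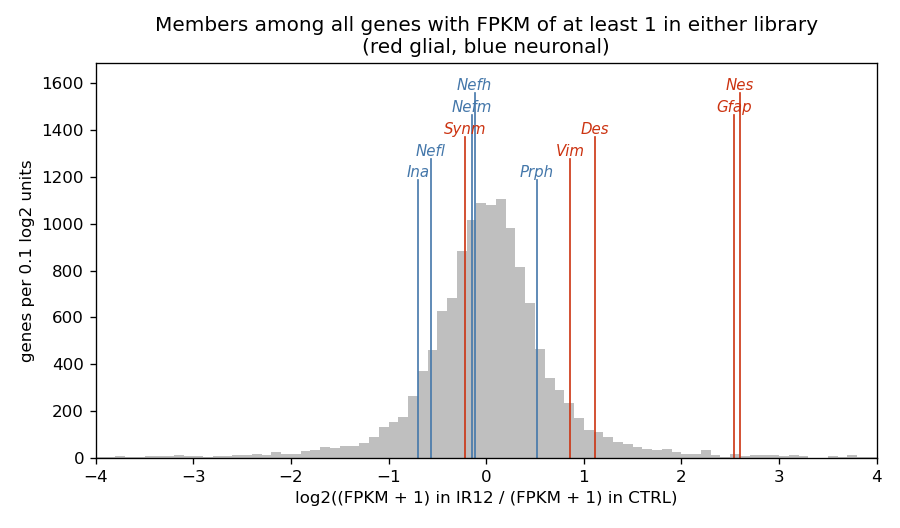
Number of genes per 0.1 units of log2 ratio (IR12 over CTRL, FPKM as deposited, pseudocount 1) for genes that reached 1 FPKM in either library, with glial members as red and neuronal members as blue lines. Gfap and Nes lie far to the right at 2.54 and 2.60, while the neuronal genes fall between -0.70 and 0.52; 108 genes lie beyond the axis limits of -4 and 4.

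Ratios between members of 1 library do not depend on how the libraries were scaled. The summed FPKM of the glial group was 134 in CTRL and 259 in IR12, and that of the neuronal group was 201 in CTRL and 150.3 in IR12 as deposited, or 235 in IR12 on the TPM scale. Glial members therefore made up 40.1% of the summed FPKM of the 10 genes in CTRL and 63.3% in IR12. Most of the glial part was Vim, which alone held 36.1% in CTRL and 54.0% in IR12, whereas Gfap held 0.881% and 5.35%. On the neuronal side Nefl went from 39.5% to 21.7%, and Prph had the 1 neuronal share that was larger in IR12 (2.03% and 2.49%).

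Of the 25 pairs of 1 glial and 1 neuronal member, 22 had a higher ratio of glial to neuronal FPKM in IR12 than in CTRL. The other 3 pairs all held Synm, set against Nefm, Nefh and Prph. Gfap shows the size of this shift. Nefl was 44.8 times as abundant as Gfap per unit length in CTRL and 4.06 times in IR12, and Gfap went from 0.202 to 2.54 times the level of Ina.

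The subunits also shifted within each group. Vim outnumbered Gfap 41.0 to 1 in CTRL and 10.1 to 1 in IR12, so Gfap gained relative to Vim although Vim remained the more abundant mRNA. Of the summed FPKM of the 3 neurofilament chains, Nefl held 73.8% in CTRL and 67.6% in IR12, Nefm 10.9% and 13.3%, and Nefh 15.3% and 19.1%. Nefh and Nefm kept nearly the same proportion to each other, with Nefh over Nefm at 1.40 in CTRL and 1.44 in IR12, while Nefl over Nefm went from 6.78 to 5.07. Per unit length, IR12 thus held less Nefl mRNA for each Nefm and Nefh mRNA.

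**Figure D4:**
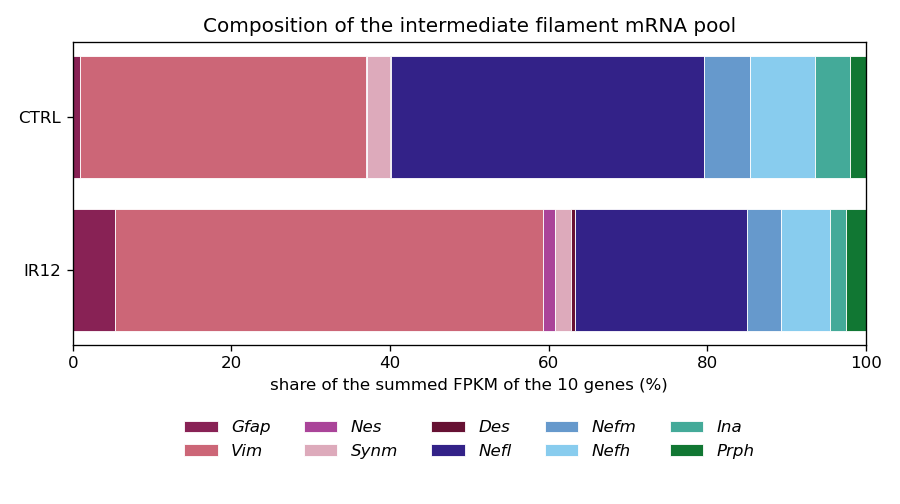
Share of each gene in the summed FPKM of the 10 members (%), with 1 bar per library, glial genes in red and purple tones and neuronal genes in blue and green. The glial part covers 40.1% of the bar in CTRL and 63.3% in IR12, mostly as Vim, and Nefl shrinks from 39.5% to 21.7%.

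Whether these shifts came with changes in the cells that make the filaments was described with marker genes, bearing in mind that in a bulk retina fewer cells of a type and less RNA per cell cannot be told apart. Müller glia markers moved against Gfap, Vim and Nes. Of 10 marker genes 9 were lower in IR12 by at least 2-fold and 1, Clu, was higher by as much. The shares of all genes were 6.12% and 6.56%. The markers had a median log2 ratio of -1.93 and a summed FPKM of 1807 in CTRL and 1039 in IR12. On the TPM scale 6 were at least 2-fold lower, beside 3.48% of all genes. Glul, glutamine synthetase, measured 754 FPKM in CTRL and 126 FPKM in IR12, and the water channel gene Aqp4 48.0 and 4.16. Car14, a carbonic anhydrase, had 72.9 and 11.8, and Kcnj10, a potassium channel of the glial membrane, 7.07 and 0.467. Clu, which encodes a secreted chaperone and is the most abundant of the list in IR12, had 223 and 673.

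Gfap, Vim and Nes and 9 of the 10 markers thus went in opposite directions, while Synm and Clu did not follow their groups. Glul was 255 times as abundant as Gfap per unit length in CTRL and 5.74 times in IR12. It was 6.23 times as abundant as Vim in CTRL and 0.569 times in IR12, so the order of Glul and Vim was exchanged.

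Astrocyte markers gave a weaker account of that cell type, because its defining genes were near 0. Pax2 was listed at 0 in CTRL and at 0.0317 in IR12, and Aldh1l1 at 0.0516 and 0.0302. The 7 genes had a median of -0.86 and a summed FPKM of 177 in CTRL and 99.1 in IR12. Of these genes 0 were at least 2-fold higher and 3 at least 2-fold lower, beside 6.56% and 6.12% of all genes. Those 3 were Gja1, a gap junction gene with 40.7 in CTRL and 6.63 in IR12, S100b with 25.8 and 5.81, and Pdgfra with 7.28 and 1.88. Slc1a2, the most abundant of the list, made up most of both sums, with 101 in CTRL and 84.3 in IR12. Its log2 ratio was -0.26 as deposited and 0.38 on the TPM scale. No astrocyte marker at a measurable level moved in the direction of Gfap as deposited.

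Genes tied to reactive glia in injury studies were mostly higher in IR12. Of 11 listed in the table, 8 were higher in IR12 by at least 2-fold and 0 were lower by as much, beside 6.56% and 6.12% of all genes, with a median of 2.84. Of those 8, 5 were under 1 FPKM in CTRL and passed the filter only through IR12, so the count is a description of the list. Their summed FPKM was 158 in CTRL and 781 in IR12. Timp1, a metalloproteinase inhibitor, measured 4.71 FPKM in CTRL and 169 FPKM in IR12. Socs3, a feedback inhibitor of cytokine signalling, had 0.393 and 29.1, the oncostatin M receptor gene Osmr 0.990 and 26.5, and the chemokine gene Cxcl10 0.139 and 11.5. Stat3, the transcription factor that GFAP induction is known to need in reactive astrocytes, had 17.7 and 120.2. Cd44, a hyaluronan receptor found on Müller glia and leukocytes and the most abundant of the list in IR12, had 40.8 and 299. Its log2 ratio of 2.84 was near that of Gfap at 2.54. The part of leukocytes and other cell types in the values of this list was not tested.

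**Figure D5:**
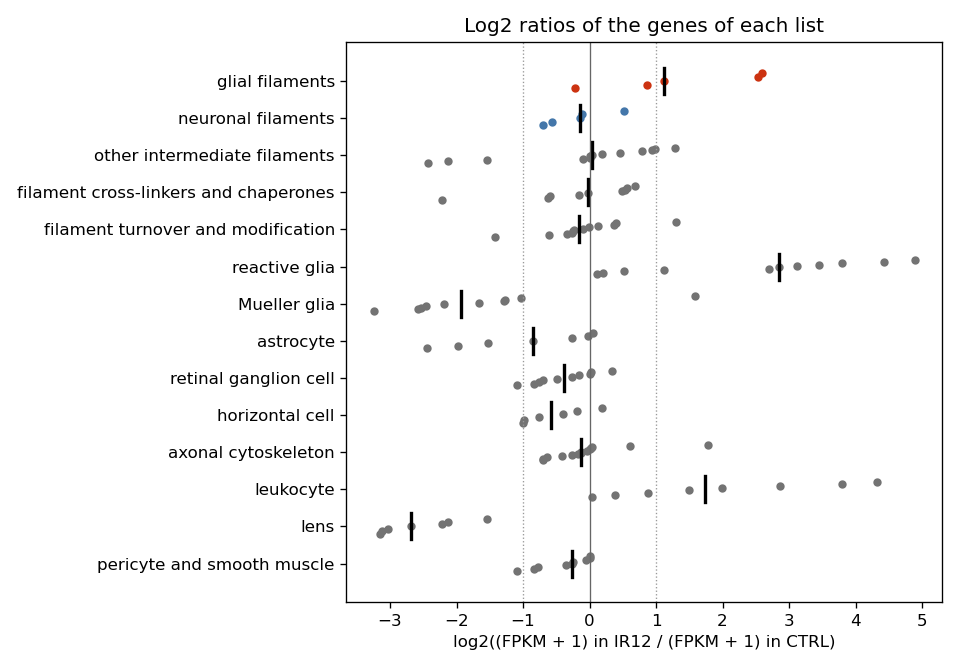
Log2 ratio (IR12 over CTRL, FPKM as deposited, pseudocount 1) of every gene found in the table for 14 of the gene lists, with 1 dot per gene, a black bar at the median and dotted lines at 2-fold. The median of the glial filaments (1.12) is the value of Des, that of the reactive glia list is 2.84 and that of the Müller glia list -1.93, and the neuronal filaments (-0.15) lie near 0 as deposited but at 0.47 on the TPM scale.

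Markers of retinal ganglion cells, whose axons hold most of the neurofilament of the retina, were mostly lower in IR12 as deposited. Of 10 genes 1 was at least 2-fold lower and 0 at least 2-fold higher, beside 6.12% and 6.56% of all genes. In so short a list these counts are not read as a result about the list. The median was -0.38 as deposited and -0.03 on the TPM scale. The median was -0.60 as deposited over the 8 that reached 1 FPKM in either library, and Atoh7 was listed at 0 in both libraries. The summed FPKM was 275 in CTRL and 218 in IR12, close in proportion to the sums of the neuronal filaments. Sncg, gamma-synuclein, was the most abundant, with 79.7 in CTRL and 80.7 in IR12. Nrn1 had 28.0 and 15.2, Isl1 66.1 and 40.2, and Slc17a6, the glutamate transporter gene of ganglion cell synaptic vesicles, 39.0 and 27.4, with Slc17a6 at a log2 ratio of 0.14 on the TPM scale. Rbpms, with 5.69 and 7.46, was higher. The gene past 2-fold was the transcription factor gene Pou4f2, with 3.41 and 1.06, and the related Pou4f3 had 1.85 and 0.679, a 2.72-fold difference by FPKM alone. Both stayed lower on the TPM scale (log2 ratios of -0.73 and -0.47), where Pou4f2 no longer passed 2-fold. The log2 ratio of Nefl, -0.57, lay between those of Sncg (0.02) and Pou4f2 (-1.10).

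Horizontal cells, the other retinal neurons rich in neurofilaments, had 6 markers with a median of -0.59 as deposited and -0.08 on the TPM scale. Of these, 4 reached 1 FPKM in either library and 0 passed 2-fold of (FPKM + 1), beside 6.56% of all genes higher and 6.12% lower. By FPKM alone, however, Tfap2b was 2.06-fold and Prox1 2.01-fold lower. The sum of the 6 was 158 in CTRL and 85.0 in IR12. Tfap2b measured 34.4 FPKM in CTRL and 16.7 FPKM in IR12, Prox1 46.5 and 23.1, and Calb1, the most abundant, 74.2 and 43.2. These 3 genes are also expressed by amacrine or bipolar cells. Their log2 ratios, of which that of Calb1 was closest to 0 at -0.77, lay below that of every neuronal filament gene. The rest of the list did not: Onecut1 (-0.40), Lhx1 (-0.19) and Onecut2 (0.19) lay above Ina and Nefl. Lhx1 and Onecut2 were under 1 FPKM in both libraries.

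The axonal cytoskeleton beyond intermediate filaments had a median near that of the neuronal filaments. Of 14 genes, 1 was at least 2-fold higher and 0 at least 2-fold lower, beside 6.56% and 6.12% of all genes. These counts are not read as a result about the list. The median was -0.12 as deposited and 0.51 on the TPM scale, beside the neuronal filament medians of -0.15 and 0.47. Gap43, a growth-associated protein of regrowing axons, was the gene past 2-fold, with 20.1 in CTRL and 71.4 in IR12. Of the 14 genes 5 were higher as deposited, among them Map1b, the most abundant in IR12, with 226 and 343, and the sum of the list was 1342 and 1384. Map1a had 19.9 and 11.9, Mapt, which encodes tau, 47.6 and 29.1, and the tubulin regulator gene Stmn2 56.9 and 36.0. Their log2 ratios of -0.70, -0.69 and -0.65 lay beside those of Ina and Nefl.

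Proteins that bind, protect or modify intermediate filaments did not follow the glial members as a group. Among 9 cross-linkers and chaperones 0 were at least 2-fold higher and 1 was at least 2-fold lower, beside 6.56% and 6.12% of all genes. With so few genes these counts are not read as a result about the list. The median was -0.02 as deposited and 0.47 on the TPM scale. The median was -0.16 as deposited over the 7 that reached 1 FPKM in either library. The gene past 2-fold was Cryab, a small heat shock protein that binds GFAP and desmin filaments, with 718 FPKM in CTRL and 154 FPKM in IR12. The linker genes Macf1 and Dst, lower as deposited but at log2 ratios of 0.05 and 0.47 on the TPM scale, had 232 and 154, and 59.7 and 53.1, and the chaperone gene Hspb8 4.59 and 6.85. Plec, whose product plectin links vimentin and desmin filaments to other structures, had 4.62 FPKM in IR12 and a log2 ratio of 0.68. On the TPM scale Plec and Hspb8 were at least 2-fold higher, beside 22.4% of all genes. Cryab is also a major lens protein, and its log2 ratio of -2.21 lay between the medians of the Müller glia markers (-1.93) and the lens markers (-2.68).

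Among 12 genes for filament turnover and modification, 1 was at least 2-fold higher and 1 at least 2-fold lower, beside 6.56% and 6.12% of all genes. The median was -0.17 as deposited and 0.35 on the TPM scale. Capn2, a calcium-activated protease that cuts neurofilament chains among other substrates, had 20.5 in CTRL and 51.6 in IR12. Padi2, an enzyme that citrullinates GFAP and vimentin, had 12.7 and 4.13. Cdk5r1, the activator of the kinase Cdk5 that phosphorylates neurofilament tails, had 12.7 and 7.98. Capn2 and Padi2 were the genes past 2-fold. On the TPM scale Padi2 (-0.88) no longer passed 2-fold and Rock2 (1.01) was at least 2-fold higher. In so short a list these counts are near the shares of all genes and are not read as a result about the list.

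Several other cell types can hold the same filaments, and their markers differed between the libraries. Of 8 leukocyte markers 5 were at least 2-fold higher and 0 at least 2-fold lower, beside 6.56% and 6.12% of all genes. As 4 of the 5 passed the filter only through IR12, the count is a description of the list. Its median was 1.74 and its summed FPKM 20.5 in CTRL and 134 in IR12. Lyz2 was the most abundant, with 9.73 and 76.9. The neutrophil genes S100a8 and S100a9 had 0 and 12.8, and 0.199 and 23.0, and Itgam had 0.693 and 5.71. The macrophage and microglia genes Csf1r, with 3.61 and 3.71, and Aif1, with 5.42 and 7.36, differed less. Vim is abundant in leukocytes, and the part of these cells in its higher value was not tested.

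Lens markers went the other way. All 7 were at least 2-fold lower in IR12, as deposited beside 6.12% of all genes and on the TPM scale beside 3.48%. Their median was -2.68 as deposited, and their summed FPKM was 3191 in CTRL and 373 in IR12. Cryba1, the most abundant, had 1614 in CTRL and 196 in IR12, Cryaa 1118 and 124, Crybb2 418 and 47.0, and Mip 16.1 and 1.67. Lens fibres contain vimentin, and the part of lens RNA in the Vim values of the 2 libraries was not tested.

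Markers of the vessel wall were set beside Des, and their part in its higher value was not tested. Of 9 pericyte and smooth muscle genes 0 were at least 2-fold higher and 1 at least 2-fold lower, beside 6.56% and 6.12% of all genes. In the short lists of this paragraph, counts past 2-fold are not read as a result. The median of the 9 genes was -0.26 as deposited and 0.13 on the TPM scale. Their summed FPKM was 59.4 in CTRL and 32.9 in IR12. Rgs5, the most abundant and the gene past 2-fold, had 38.6 and 17.6 and no longer passed 2-fold on the TPM scale (-0.47). Tagln had 5.05 and 5.09. Of 5 endothelial genes 1 was at least 2-fold higher, Flt1 with 12.3 and 32.3, and the median was -0.02 as deposited and 0.51 on the TPM scale. Kdr, the most abundant, had 108 and 66.8, and the sum of the list was 127 and 106. Striated muscle genes had a sum of 2.16 in CTRL and 2.28 in IR12 over 5 genes, of which 1 reached 1 FPKM in either library. This was Mylpf, with 1.11 and 1.29. In fibroblast genes the sum was 8.55 and 2.42 over 6 genes with a median of -0.07, most of it Pdgfra, the 1 gene past 2-fold, with Col1a2 at 0 in both libraries.

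Cell division markers were set beside Nes, since nestin occurs in dividing progenitors. Of 5 cell division genes 2 reached 1 FPKM in either library, so the others could not pass 2-fold. Mki67 had 0.402 in CTRL and 0.118 in IR12 and Top2a 0.531 and 0.0988, while Pcna, which also serves DNA repair, had 68.3 and 104. Mki67 and Top2a were under 1 FPKM in both libraries, so their differences rest on few reads. The part of dividing cells in the higher value of Nes was not tested. Of the rod photoreceptor genes, which mark the bulk of the tissue, Sag measured 2482 FPKM in CTRL and 4703 FPKM in IR12, Pde6b 891 and 718, and Nrl 54.1 and 39.4, both of the latter lower as deposited and higher on the TPM scale (log2 ratios of 0.34 and 0.19).

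Among the genes nearest to Gfap by level in both libraries were Lmo2, with 3.28 FPKM in CTRL and 21.5 FPKM in IR12, and Sema3c, with 3.18 and 19.9. Their distances from Gfap in the plane of log2(FPKM + 1) were 0.12 and 0.15. The genes nearest to Nefl were Sparcl1 with 128 and 91.0, Ahcyl1 with 135 and 84.9, and Atp6v1a with 124 and 90.6, at distances of 0.06, 0.07 and 0.09. With 1 value per library, nearness means a like pair of levels and nothing more.

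Promoter sequences are shown for the 4 members that reached an FPKM of 5 and were higher in IR12 under every scaling. RefSeq promoters on GRCr8 were found for 7 of the 10 members (Gfap, Vim, Nes, Synm, Des, Ina and Prph). The 250 bases before the start of transcription are printed 5′ to 3′ on the strand of the gene, for Gfap chr10:88361662-88361911 (minus strand), Vim chr17:81577011-81577260 (plus), Nes chr2:175736338-175736587 (plus) and Prph chr7:132097039-132097288 (plus). Capitals mark matches, on either strand, to any of 5 motifs searched, which were TTCNNNGAA for STAT factors, TGANTCA for AP-1, TATAAA for the TATA box, GGGCGG for the GC box and CCAAT.
Gfap: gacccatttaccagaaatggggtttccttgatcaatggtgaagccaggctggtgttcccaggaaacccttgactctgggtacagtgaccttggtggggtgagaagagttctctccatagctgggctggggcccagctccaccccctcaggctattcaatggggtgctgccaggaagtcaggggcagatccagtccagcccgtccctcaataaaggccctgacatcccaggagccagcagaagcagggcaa
Vim: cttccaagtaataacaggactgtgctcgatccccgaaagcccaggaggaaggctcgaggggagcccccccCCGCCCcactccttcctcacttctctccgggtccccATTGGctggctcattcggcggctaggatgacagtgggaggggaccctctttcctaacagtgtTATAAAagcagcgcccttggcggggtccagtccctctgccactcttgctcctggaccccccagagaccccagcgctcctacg
Nes: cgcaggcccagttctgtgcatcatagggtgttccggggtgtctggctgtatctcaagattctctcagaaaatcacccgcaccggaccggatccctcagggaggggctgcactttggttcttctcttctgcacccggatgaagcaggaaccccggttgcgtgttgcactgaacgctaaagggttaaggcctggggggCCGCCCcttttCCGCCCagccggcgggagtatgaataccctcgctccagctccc
Prph: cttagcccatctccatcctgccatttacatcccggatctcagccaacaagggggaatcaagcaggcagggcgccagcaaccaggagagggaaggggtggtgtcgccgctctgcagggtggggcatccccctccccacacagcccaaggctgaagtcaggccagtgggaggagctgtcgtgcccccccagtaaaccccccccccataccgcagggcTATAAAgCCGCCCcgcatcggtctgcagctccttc
The window of Gfap held none of the 5. TTCNNNGAA, in 7.67% of all 33469 promoters of the same length, and TGANTCA, in 6.34%, were not in the windows of the 7 members. Vim and Prph both held TATAAA (12.9% of promoters), at 82 to 77 and at 35 to 30 bases before the start. GGGCGG, in 30.5% of promoters, was in 5 of the 7 members (Vim, Nes, Des, Ina and Prph), and Nes held it 2 times, both within 54 bases of the start. CCAAT, in 34.0%, was in Vim and Synm. A match describes the letters of the window and does not show that a factor binds there.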

How the data were processed

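The authors deposited gene-level FPKM for both libraries in 1 table, with loci on rn6. The submitters' processing notes name STAR 2.5.2b and Cuffdiff 2.2.0. Whether FPKM were also scaled between the libraries is not given in the sources used here. Starts are listed from 0, and 1 was added. FPKM were used as deposited, and log2 ratios were taken with a pseudocount of 1 and, for counts past 2-fold, a minimum FPKM of 1 in either library. What 1 read is worth was fitted on the lowest repeated FPKM of genes of equal listed length under 1500 bp, as reads over length minus an offset of 202 bases. At 17 of 25 lengths the step in CTRL was 1.71 times that in IR12 (within 0.1%), and the fit on 16 of these missed no step by more than 1.87%.

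The members and gene lists were chosen with earlier results of these data known. Named genes are the members, up to 4 genes per list with the largest absolute log2 ratio at FPKM of at least 5, the most abundant marker of each cell type and the 3 nearest genes of Gfap and Nefl. Atoh7, Pou4f2, Pou4f3, Csf1r, Aif1, Plec, Pax2, Aldh1l1, Stat3, Cd44, Map1b, Mki67, Top2a, Col1a2, Cdk5, Nt5c2, Lmnb1, Krt18, Onecut1, Onecut2, Lhx1, Iffo2 and Rock2 were named after their values were seen. Eppk1, Serpina3n, Pecam1 and Myh1 were not matched. Some genes that this rule names are not reported here. Small non-coding RNAs were recognised by symbol. The procedures were tested on simulated data. Python 3.11.15, numpy 2.4.6, pandas 2.3.3 and matplotlib 3.10.9 were used.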

Additional observations from a re-analysis of the deposited data

How the results depend on the processing

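Each condition has 1 library, so no library could be left out. No paired analysis was possible because each condition has 1 library. Moves of a median under 0.1 on the log2 scale were counted as none. The neuronal median, -0.15 as deposited, was 0.47 on the TPM scale, a change of sign that follows from the factor put on IR12. It kept its sign with a pseudocount of 0.1 or none, after centring on the median gene and without small non-coding RNAs in the sum, and a minimum FPKM of 5 in either library removed none of its genes. The glial median, 1.12 as deposited, was 2.27 with a pseudocount of 0.1, 1.57 on the TPM scale, 1.70 over the members that reached an FPKM of 5 in either library and 2.61 with no pseudocount, a setting chosen after seeing the data. Under the same settings the glial minus neuronal gap, 1.26 as deposited, was 2.42, 1.09, 1.85 and 2.77. Gfap and Nes pass the minimum of 5 only through IR12, and Des is dropped, so that setting depends on the change itself. Among glial genes, 2 to 4 were at least 2-fold higher under all settings. Counting from 1.5-fold, 1 neuronal gene (Ina) was lower. The share of all genes at that threshold was not taken, so this count is not read as a result about the neuronal group.

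Of 50 single-gene values under other settings, 4 had the other sign, all on the TPM scale (Synm, Nefl, Nefm and Nefh). The share of neurofilament FPKM held by Nefl was lower in IR12 also as a log2 difference from Nefm and Nefh, by 0.44. Depth limits Nes and Des most, with 2.33 and 4.55 reads per 1000 bases in CTRL. RNA from several cell types is mixed in each library, and differences between animals cannot be told apart from those between conditions.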

Other observations

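Intermediate filaments outside the 10 members showed no common direction. Of 13 other family genes 1 was at least 2-fold higher in IR12 on the scale of (FPKM + 1) and 3 at least 2-fold lower. The shares of all genes were 6.56% and 6.12%. The median log2 ratio was 0.04 as deposited and 0.54 on the TPM scale. On the TPM scale 3 were at least 2-fold higher (Lmna, Krt18 and Iffo2) and 3 at least 2-fold lower, beside 22.4% and 3.48% of all genes. The gene past 2-fold as deposited was Lmna, which encodes the A-type lamins of the nuclear envelope, with 1.90 FPKM in CTRL and 6.03 FPKM in IR12. Lmnb1, a B-type lamin and the most abundant of the list, had 38.0 and 35.5, a log2 ratio of -0.09 that was 0.54 on the TPM scale.

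The 3 lower genes were Krt19, a keratin of simple epithelia, with 12.6 in CTRL and 1.52 in IR12, and Bfsp1 and Bfsp2, which encode the beaded filament proteins of the lens. Bfsp1 had 6.29 FPKM in CTRL and a log2 ratio of -1.55, and Bfsp2 had 7.42 and 0.931. They moved with the crystallin genes, whose list they belong to. Krt18, the partner of Krt8 in simple epithelia, had 1.39 and 3.75, a log2 ratio of 0.99, and Krt20 was listed at 0 in both libraries.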
